A study of Mus musculus with 9 samples.

Results

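Met encodes the receptor tyrosine kinase for hepatocyte growth factor, and Hgf encodes that growth factor. They are described here across mouse breast tumours together with 5 genes that lie beside Met on chromosome 6, namely Cav1, Cav2, Tes, Capza2 and St7. The 7 genes were found in the count table by matching Ensembl identifiers to these symbols, and they are 7 of the 49585 genes counted. They were selected on their levels in these same counts, in which Met and some of its neighbours stood high in 1 tumour and Hgf in another, so the levels are given as a description and no test of them is used as support. The tumours were spontaneous breast adenocarcinomas of mice that carried K14-Cre, a Trp53 genotype labelled wm-R172H/fl, and a Cas9 allele labelled Rosa26LSL CAS9-P2A-EGFP/+. K14-Cre is a recombinase driven by the keratin 14 promoter, which is active in basal epithelium, and LSL marks a cassette that such a recombinase removes. All 9 tumours had this genotype and were treated with adeno-associated virus (AAV), a gene delivery vector, on days 0, 3 and 8. The virus was labelled AAV-delta-mut-p53 for 6 tumours and AAV-Control for 3 tumours. They were taken at the humane endpoint of each animal, and no animal age is given in the labels. The AAV-delta-mut-p53 tumours are called D1 to D6 and the AAV-Control tumours C1 to C3. D4 and D5 share a number in their titles, and whether they came from 1 animal is not stated, so p-values measure the spread between these samples.

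HGF is made mainly by stromal cells as an inactive single chain, and serine proteases outside the cell cut it into the form that binds MET. Bound MET phosphorylates itself, recruits adaptors such as GAB1 and GRB2, and activates the RAS-ERK, PI3K and STAT3 pathways, which drive epithelial growth, movement and branching. In breast epithelium MET is known from duct branching and from basal-like cancers. CAV1 and CAV2 coat caveolae, the small pits of the plasma membrane. TES is a LIM-domain protein of focal adhesions, CAPZA2 is a subunit of the protein that caps actin filaments, and ST7 is a membrane protein that was named as a suppressor of tumorigenicity.

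Libraries held between 18581545 and 30953250 counts. Levels are given as CPM, the count of a gene scaled to a common library size with TMM factors, which correct for differences in library composition. RNA of the targeted gene, Trp53, ran from 13.1 to 41.4 CPM in AAV-delta-mut-p53 tumours and from 39.2 to 48.4 CPM in AAV-Control tumours. The groups overlapped, and the log2 fold change fitted by edgeR was -0.42 ± 0.37 (SE, n = 6 and 3). A separate measure, the difference between the group means of log2(CPM + 1), was -0.51. Its exact 2-sided permutation p was 0.131, where the smallest possible p was 0.0119. D2 stood apart with a summed level of 38436 CPM over 8 skeletal muscle markers, against 24.6 to 363.7 CPM in the other 8 tumours. Luminal epithelial markers, 8 of 8 of them detected in every tumour, summed to 369.1 to 3942 CPM in AAV-delta-mut-p53 tumours and 1248 to 3067 CPM in AAV-Control tumours. In whole tumours, fewer cells of a type and less RNA per cell cannot be told apart.

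The sequences just upstream of the gene starts are shown for Met, Cav2 and Tes, whose RNA was far highest in D3, and for Hgf, whose RNA was highest in D6. Cav1, Capza2 and St7 were also highest in D3, at smaller ratios to the other tumours, and their sequences are not shown. All sequences shown are plus-strand RefSeq sequences on GRCm38.p6, and RefSeq windows were matched for 7 of 7 genes. Capitals mark 2 sets of letters searched on both strands. The first is TGANTCA, the letters recognised by AP-1 factors (Fos and Jun proteins), and the second is GGGCGG, the GC box recognised by SP1, or CCGCCC on the other strand. The 2 did not overlap in any of these windows. Met is shown only upstream of both its RefSeq start and its GENCODE start, which lie 157 bases apart, and a short stretch around its AP-1 letters, which lies between the 2 starts, is shown on its own.
Met, chr6:17463707-17463799: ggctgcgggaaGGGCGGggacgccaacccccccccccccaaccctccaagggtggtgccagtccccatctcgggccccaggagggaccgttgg
Met, chr6:17463893-17463919: gttgcccggcTGAGTCAcgggccgggc
Cav2, chr6:17280935-17281184: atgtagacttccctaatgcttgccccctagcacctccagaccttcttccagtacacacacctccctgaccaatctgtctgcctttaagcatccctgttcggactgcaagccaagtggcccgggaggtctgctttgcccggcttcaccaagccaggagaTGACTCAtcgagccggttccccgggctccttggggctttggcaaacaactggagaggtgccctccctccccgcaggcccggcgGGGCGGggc
Tes, chr6:17064899-17065148: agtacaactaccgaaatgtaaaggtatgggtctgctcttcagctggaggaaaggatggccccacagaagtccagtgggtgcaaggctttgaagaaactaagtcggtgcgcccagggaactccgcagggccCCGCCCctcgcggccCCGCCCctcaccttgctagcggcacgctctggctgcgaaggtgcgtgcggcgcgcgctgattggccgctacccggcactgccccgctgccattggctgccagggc
Hgf, chr5:16553245-16553494: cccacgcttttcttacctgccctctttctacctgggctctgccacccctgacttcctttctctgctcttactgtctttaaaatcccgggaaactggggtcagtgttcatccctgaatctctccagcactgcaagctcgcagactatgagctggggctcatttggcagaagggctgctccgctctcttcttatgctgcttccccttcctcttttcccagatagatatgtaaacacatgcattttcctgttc
Among the 7 genes the AP-1 letters occurred in the 250 upstream bases of Met and Cav2, starting 54 and 92 bases before the RefSeq start, and not in the other 5 windows. Of 32851 RefSeq windows of the same length, 6.75% held these letters and 32.7% held a GC box. The Met window held 3 GC boxes, those of Tes, Cav1 and Cav2 held 2, 1 and 1, and those of Hgf, Capza2 and St7 held 0. For Capza2 and St7 the RefSeq start lies 776 and 1061 bases after the GENCODE start. Their windows therefore lie past the GENCODE start and do not cover the bases upstream of it. A match describes the letters and does not show that a factor binds there.

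Met (ENSMUSG00000009376.15) lies on chromosome 6 from 17463800 to 17573980 on the plus strand of GRCm38. Its level was 118.8 CPM in the lowest, 143.0 CPM in the median and 9715 CPM in the highest AAV-delta-mut-p53 tumour, against 48.8, 63.1 and 106.8 CPM in the AAV-Control tumours. D3 held the highest value and D6 the next, at 509.5 CPM, while the other 4 lay between 118.8 and 146.6 CPM. All 6 AAV-delta-mut-p53 tumours were above all 3 AAV-Control tumours, a pattern that 1.47% of all 19606 tested genes had. The counts behind these levels were 199348 in D3, 2504 to 12532 in the other 5 AAV-delta-mut-p53 tumours and 1234 to 3208 in AAV-Control tumours, so counting error was small beside the differences between tumours.

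The log2 fold change of Met was 4.62 ± 1.86 (SE, n = 6 and 3), with a 95% confidence interval of 0.51 to 8.73, and it was not called by edgeR's quasi-likelihood test (FDR = 0.677 by the Benjamini-Hochberg method). This value rested largely on 1 library and was 1.51 without D3. In that tumour Met RNA was 80.7-fold over the median of the other 8 tumours, which was the 3rd highest such ratio among the 16435 genes that averaged 1 CPM or more. Met took 0.918% of all counts there and ranked 5 among all genes by CPM, whereas its rank ran from 182 to 4379 in the other 8 tumours. In D6 the ratio was 4.24-fold, rank 567 of the same genes.

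**Figure D1:**
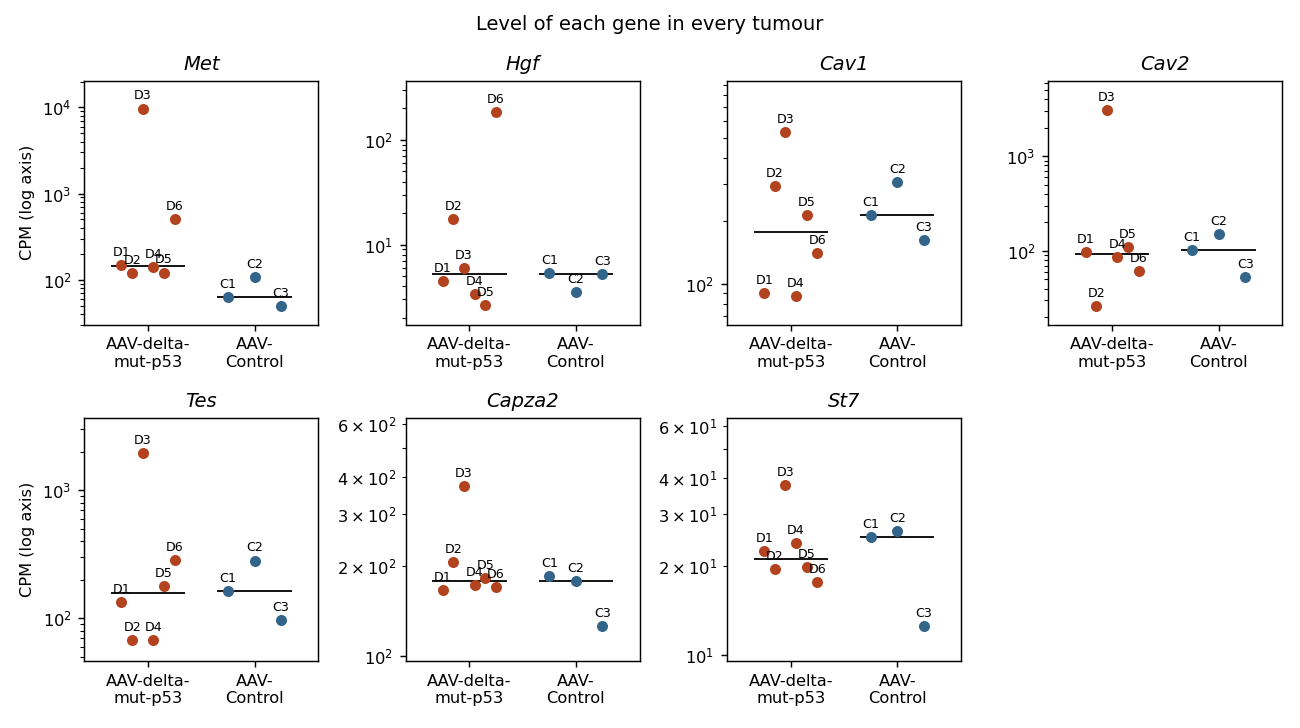
Level of Met, Hgf, Cav1, Cav2, Tes, Capza2 and St7 in CPM (log axis) in 6 AAV-delta-mut-p53 and 3 AAV-Control tumours, 1 point per tumour, and the group median as a line. D3 is the highest point for every gene but Hgf, and D6 is the highest for Hgf at 185.0 CPM.

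Hgf (ENSMUSG00000028864.7) lies on chromosome 5 from 16553495 to 16620152 on the plus strand. Its level was 2.65 CPM in the lowest, 5.22 CPM in the median and 185.0 CPM in the highest AAV-delta-mut-p53 tumour, against 3.53, 5.26 and 5.40 CPM in the AAV-Control tumours. The ligand was therefore low in most tumours of both groups, and D6 held the high value with 4549 counts behind it. D2, the tumour rich in muscle RNA, followed with 17.7 CPM, and the groups overlapped. The log2 fold change was 2.95 ± 1.50 (SE, n = 6 and 3), not called by edgeR's quasi-likelihood test (FDR = 0.677), and it was 0.56 without D6. In that tumour Hgf RNA was 34.7-fold over the median of the other 8 tumours.

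Receptor and ligand were not highest in the same tumour. Per kb of exon, which allows the pair to be compared, Met exceeded Hgf in all 9 tumours. The ratio of the Met level per kb to the Hgf level per kb was 1517 in D3 and 2.58 in D6, and it was 6.28 to 42.7 in the other 4 AAV-delta-mut-p53 tumours and 8.68 to 28.3 in AAV-Control tumours. D3 thus had the most receptor RNA, at 1265 CPM per kb, beside a ligand level of 0.834 CPM per kb that lay within the range of the other tumours. D6 had high levels of both, 66.4 CPM per kb for Met and 25.7 CPM per kb for Hgf.

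**Figure D2:**
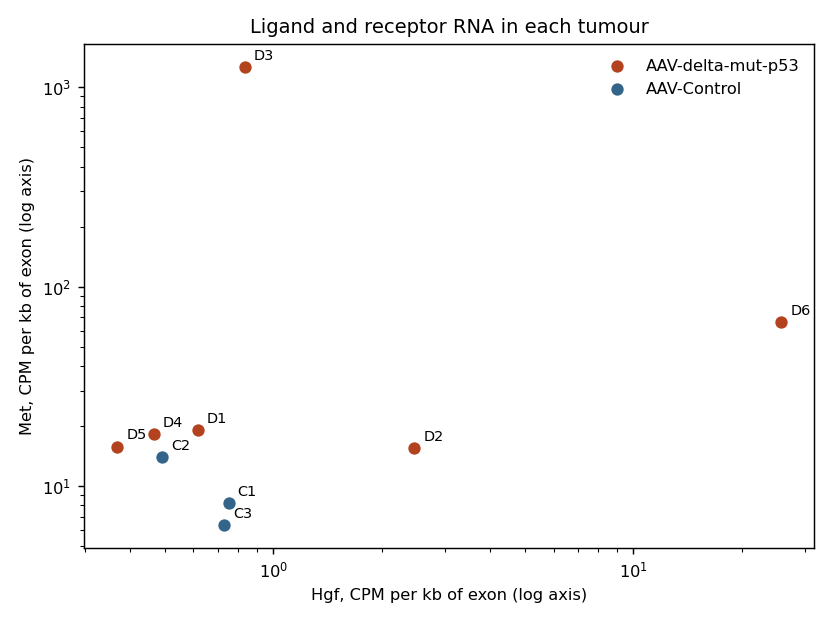
Hgf level (x axis) against Met level (y axis), both in CPM per kb of exon on log axes, with 1 point per tumour. D3 stands apart on the Met axis at 1265, and D6 stands apart on the Hgf axis at 25.7.

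Macrophage markers were the list whose level moved most closely with Hgf. Over the 9 tumours, Pearson's r between log2(CPM + 1) of Hgf and the mean of 8 macrophage markers was 0.67 (permutation p = 0.0995) and Spearman's rho was 0.77 (permutation p = 0.0214). Over the 24 relations examined, the Benjamini-Hochberg adjusted permutation p was 0.478 for r and 0.257 for rho, so neither passed. The value of r was 0.75 without the 2 tumours farthest from the median of the marker mean and 0.64 within the 6 AAV-delta-mut-p53 tumours. Macrophage markers summed to 2796 CPM in D2 and 1254 CPM in D6, against 332.8 to 733.5 CPM in the other 7 tumours. None of the 8 was at 0 in any tumour, all 8 had the higher mean with AAV-delta-mut-p53, and the part of these cells in the Hgf level was not tested. Fibroblast markers, from cells that commonly make HGF, gave r = 0.14 with Hgf (permutation p = 0.696).

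Cav2 and Tes, which precede Met on the chromosome, followed Met in D3. Cav2 (chromosome 6, 17281185 to 17289115, plus strand) was at 26.3 CPM in the lowest, 92.1 CPM in the median and 3078 CPM in the highest AAV-delta-mut-p53 tumour, against 52.8, 102.2 and 150.3 CPM in AAV-Control tumours. Tes (17065149 to 17105828, plus strand) was at 68.3, 156.8 and 1944 CPM among the AAV-delta-mut-p53 tumours, against 97.6, 164.3 and 283.0 CPM in AAV-Control tumours. D3 held the highest value of both, the remaining tumours of both groups overlapped, and the group medians were close. The ratio to the median of the other 8 tumours was 33.3-fold for Cav2 and 13.0-fold for Tes in D3. Without that tumour the log2 fold changes, 2.50 ± 1.56 for Cav2 and 1.30 ± 1.09 for Tes (SE, n = 6 and 3), turned to -0.41 and -0.30. Neither was called by edgeR's quasi-likelihood test (FDR = 0.698 and 0.769).

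Cav1 lies between Cav2 and Met, from 17306335 to 17341452 on the plus strand, and stood out far less. It was at 87.1, 177.1 and 534.0 CPM in the lowest, median and highest AAV-delta-mut-p53 tumour, against 162.4, 213.3 and 307.1 CPM in AAV-Control tumours. D3 again held the highest value, but the ratio to the median of the other 8 tumours was only 2.84-fold. Per kb of exon, the Cav2 level was 923.1 CPM per kb in D3 and 15.8 to 45.1 CPM per kb in AAV-Control tumours, while the Cav1 level was 155.1 CPM per kb in D3 and 47.1 to 89.2 CPM per kb in AAV-Control tumours. Cav2 exceeded Cav1 on this scale in D3 and, by a small margin, in D1 (29.4 and 26.3 CPM per kb) and D4 (25.8 and 25.3 CPM per kb), while Cav1 exceeded Cav2 in the other 3 AAV-delta-mut-p53 tumours and in each AAV-Control tumour. The log2 fold change of Cav1 was -0.01 ± 0.57 (SE, n = 6 and 3; edgeR FDR = 0.998).

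Capza2 and St7 follow Met on the chromosome, starting at 17636234 and 17692933 on the plus strand. Capza2 was at 166.0, 178.1 and 373.0 CPM in the lowest, median and highest AAV-delta-mut-p53 tumour, against 126.4, 178.9 and 184.8 CPM in AAV-Control tumours. St7 was at 17.7, 21.2 and 37.8 CPM among the AAV-delta-mut-p53 tumours, against 12.5, 25.1 and 26.4 CPM in AAV-Control tumours. Both were highest in D3, at 2.11-fold and 1.76-fold over the median of the other 8 tumours, and both groups overlapped for each gene. The log2 fold changes were 0.37 ± 0.33 for Capza2 and 0.15 ± 0.36 for St7 (SE, n = 6 and 3; edgeR FDR = 0.783 and 0.929). Of the 7 genes, 6 were highest of the 9 tumours in D3, where 13.6% of all genes with a ratio were, and 5 were more than 2-fold over the other tumours, where 9.78% of all genes were. These counts describe how the genes were picked and nothing is read from them.

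In the 2-group fit edgeR called 0 of the 7 genes and 0 of 19606 genes in all, which is 0% in each direction, and 1387 genes had an unadjusted p under 0.05. DESeq2 called 0.553% of 18806 genes with an adjusted p, limma voom called 0, and neither called any of the 7. DESeq2 gave no adjusted p for Met, Hgf, Cav2 and Tes.

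The 21 tested genes that started within 1 Mb of Met included Met itself and its neighbours described above, and most of the others were scarce. Gm4876, an antisense transcript that overlaps Tes, was at 56.0 CPM in D3, against 1.61 to 8.26 CPM in the other 5 AAV-delta-mut-p53 tumours and 4.15 to 12.0 CPM in AAV-Control tumours. The libraries were strand-specific per the labels, but the sources used here do not give the strand setting of the counting, so reads of this pair cannot be told apart. Tfec, a transcription factor gene of the MiT family that precedes Tes, was at 1.75 CPM in D3, within the 1.26 to 10.8 CPM of the other tumours. After Met, the ligand gene Wnt2 was at 27.4 CPM in D2 and at 0 to 2.34 CPM in every other tumour. Cttnbp2, which encodes a cortactin-binding protein, was at 187.0 CPM in D5 and 233.9 CPM in 1 AAV-Control tumour, and its level in D6 was 1.18 CPM.

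The high level in D3 reached well beyond the nearest neighbours, and lay mostly on one side of Met. Among genes of chromosome 6, the median log2 ratio of that tumour to the other 8 was 1.90 for 17 genes that start in the first 5 Mb, 2.30 for 21 genes from 5 to 10 Mb, 2.77 for 11 genes from 10 to 15 Mb and 2.49 for 9 genes from 15 to 17.6 Mb, the segment that ends with Met. It was -0.17 for 13 genes from 17.6 to 20 Mb, 0.34 for 47 genes from 20 to 30 Mb, 0.01 for 822 genes farther along, and 0.01 for 15495 genes on other chromosomes. Taken singly, the other autosomes and the X chromosome had medians in D3 from -0.54 (X) to 0.45 (chromosome 16). The segments with a median above 1 thus ran from the start of the annotated genes to Met, with Met as their highest member. The edge at 17.6 Mb was placed at the end of Met and was not read from the values. Just past it, Capza2 and St7 were 2.11-fold and 1.76-fold over the median of the other 8 tumours in D3. The same segment also held scarce genes such as Wnt2, at 1.07 CPM in D3, within the 0 to 27.4 CPM of the other tumours. Cftr was at 9.02 CPM in D3, within the 0.23 to 14.4 CPM of the others. Of the 13 genes from 17.6 to 20 Mb, 2 were more than 2-fold over the other tumours in D3, where 9.78% of all genes were. In the same segment 0 were below 0.5-fold, where 12.3% of all genes were.

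Counted over protein-coding genes alone, 34 of 41 genes up to the end of Met were more than 2-fold over the other tumours in D3, where 9.78% of all genes were, and 29 of 41 were highest there, where 13.6% of all genes were. Their median ratio was 6.70-fold. Within 15 Mb after Met, 10 of 52 protein-coding genes were more than 2-fold over the other tumours, 16 of 52 were highest in D3, which is 30.8%, and the median log2 ratio was 0.52. The count of 34 was the same without D2 among the other tumours. The files hold RNA counts only, and the number of gene copies was not analysed here.

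The following genes of that segment were chosen after their values were seen. Sem1, a small subunit of the proteasome lid, was at 2004 CPM in D3 and at 159.9 to 291.7 CPM in the other 8 tumours. Tmem106b, a lysosomal membrane protein, was at 2015 CPM against 84.1 to 371.8 CPM, and Asns, which makes asparagine, was at 739.5 CPM against 27.9 to 141.4 CPM. Each of these was thus far above every other tumour. Phf14, a chromatin-binding PHD finger protein, was at 1201 CPM against 73.6 to 156.4 CPM, and Mios, a part of the GATOR2 complex that signals amino acid supply to mTORC1, was at 586.2 CPM against 35.5 to 73.3 CPM. Other genes in the segment lay within the range of the other tumours, such as Col1a2, a fibroblast collagen gene, at 401.2 CPM against 142.4 to 4187 CPM, and Bet1, a vesicle transport gene, at 57.1 CPM against 26.6 to 73.0 CPM. On the far side of Met, Ptprz1, a receptor phosphatase gene, was 16.2-fold over the median of the other 8 tumours at 227.6 CPM.

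**Figure D3:**
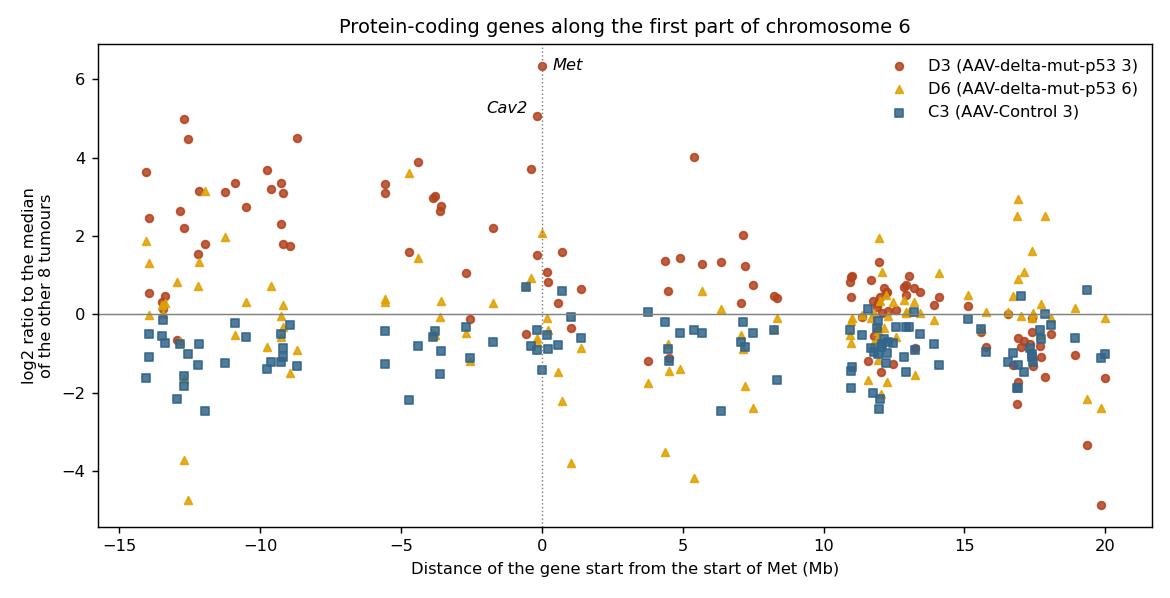
Log2 ratio of each protein-coding gene to the median of the other 8 tumours (y axis) against the distance of its start from the start of Met in Mb (x axis), for D3, D6 and C3. Most points of D3 left of Met lie above 1, and Met is the highest point, while points right of Met lie on both sides of 0.

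No other tumour had a median log2 ratio above 0.66 in any of the 4 segments up to Met, except D2 in the first of them. In D6, which had the next highest Met level, the median log2 ratio was 0.25, 0.24, 0.32 and 0.08 in the 4 segments up to Met, and 8 of 41 protein-coding genes there were more than 2-fold over the other tumours, where 13.6% of all genes were. Genes after Met were lower in that tumour, with medians of -0.89 from 17.6 to 20 Mb and -0.60 from 20 to 30 Mb. C3, which had the lowest Met level, had medians of -0.94, -0.91, -0.93 and -0.63 in the 4 segments up to Met, -0.05 from 17.6 to 20 Mb and -0.71 from 20 to 30 Mb, so its low level was not limited to the segments up to Met. D2 had a median of 1.41 in the first 5 Mb, beside its high level of muscle and fibroblast RNA, whose part in that value was not tested. Over the 37 genes within 5 Mb of Met on either side, the median log2 ratio was 1.08 in D3 and -0.57 to 0.47 in the other 8 tumours.

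**Figure D4:**
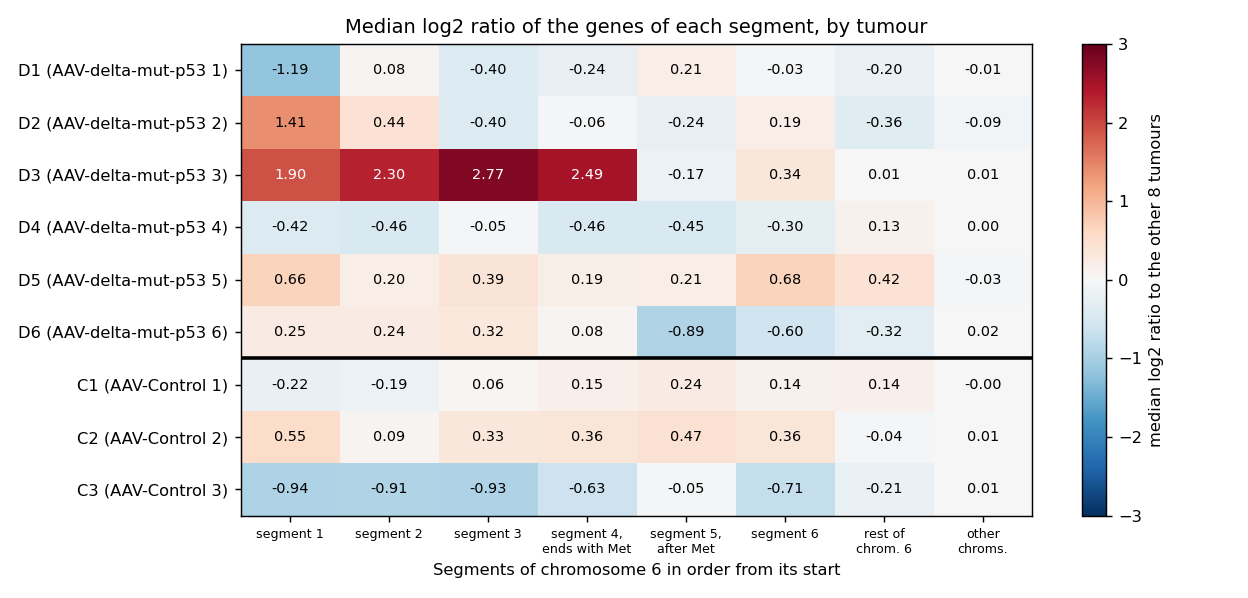
Median log2 ratio to the other 8 tumours of the genes in 6 consecutive segments of chromosome 6, in the rest of the chromosome and on other chromosomes, with 1 row per tumour and AAV-delta-mut-p53 tumours above AAV-Control tumours. The 4 segments up to Met reach 1.90 to 2.77 in D3.

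The genes around Hgf on chromosome 5 did not share its high level in D6, in a comparison added after the values were seen. Of 21 other genes with a start within 5 Mb of Hgf, 2 were more than 2-fold over the other tumours and 5 were below 0.5-fold, and the median log2 ratio was -0.64. Over all genes, 13.6% were more than 2-fold over and 10.7% below 0.5-fold in that tumour. The nearest protein-coding gene of 1 CPM or more on each side, Cacna2d1 (a calcium channel subunit) and Sema3c (a secreted guidance protein), were at 13.0 and 25.0 CPM in D6, against 6.96 to 131.7 and 41.7 to 239.6 CPM in the other 8 tumours. Sema3a, a related guidance gene farther off, was at 25.5 CPM against 1.97 to 8.45 CPM.

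Outside the 5 Mb window, the 5 genes whose log2(CPM + 1) followed Met most closely over the 9 tumours were Acadl, Gm14133, Gm26700, Ap1g1 and Fzd5, with Pearson's r of 0.97, 0.96, 0.96, 0.96 and 0.96. These values rest strongly on D3, and r over the remaining 8 tumours was 0.92, 0.81, 0.77, 0.86 and 0.85. Acadl, on chromosome 1, encodes a fatty acid oxidation enzyme and was at 514.0 CPM in D3, 236.3 CPM in D6, 98.1 to 122.5 CPM in the other 4 AAV-delta-mut-p53 tumours and 70.5 to 106.1 CPM in AAV-Control tumours. Its order over tumours therefore resembled that of Met at a smaller range. Fzd5, also on chromosome 1, encodes a Wnt receptor and was at 118.6 CPM in D3 and at 5.30 to 23.5 CPM in the other 8 tumours. With Met itself, r over 9 tumours was 0.87 for Capza2, 0.86 for Tes, 0.84 for Cav2, 0.65 for St7, 0.50 for Cav1 and 0.23 for Hgf. Without D3 these became 0.29, 0.39, -0.07, 0.09, -0.29 and 0.75. The likeness of the neighbours to Met therefore lay mostly in that 1 tumour. The higher r of Hgf with Met once D3 was left out rested largely on 1 tumour as well, D6. Among the remaining 8, D6 was far highest for both genes. Hgf was at 185.0 CPM there against 2.65 to 17.7 CPM in the rest, and Met at 509.5 CPM against 48.8 to 146.6 CPM. No r was taken without both D3 and D6, so nothing is read from it on the other tumours.

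None of the 86 genes in 8 lists of the pathway and of the neighbours' partners was called between the groups by edgeR or by DESeq2. The median log2 fold change was 1.05 for 8 genes of HGF activation and its inhibitors, 0.49 for 10 related receptors and MET partners, 0.03 for 12 signalling adaptors, 0.32 for 10 genes that down-regulate MET, -0.04 for 16 feedback and output genes of the ERK pathway, 0.68 for 11 genes of the invasion and growth response, -0.33 for 8 caveola partners and 0.16 for 11 actin capping and focal adhesion partners, beside 0.09 for all genes tested. An unadjusted p under 0.05 was found for 3 of the 86, Gab1, Stat3 and Ets1, where 7.07% of all genes tested had one, so the share in the lists was no higher than the background. Gab1, the main docking adaptor of MET, was at 56.3, 97.6 and 157.5 CPM in the lowest, median and highest AAV-delta-mut-p53 tumour, against 44.2, 56.8 and 59.5 CPM in AAV-Control tumours, with 5 of 6 AAV-delta-mut-p53 tumours above all AAV-Control tumours. Stat3, a transcription factor gene that acts below MET, was at 151.2, 268.1 and 401.5 CPM among the AAV-delta-mut-p53 tumours, against 110.4, 114.6 and 172.3 CPM in AAV-Control tumours. Ets1, a transcription factor gene of the invasion response, was at 112.0, 186.9 and 327.8 CPM, against 74.6, 81.0 and 123.4 CPM. The groups overlapped for each of the 3 genes. Their log2 fold changes were 0.88 ± 0.35 for Gab1, 0.98 ± 0.38 for Stat3 and 1.08 ± 0.39 for Ets1 (SE, n = 6 and 3; edgeR FDR = 0.677 for each).

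In D3 most of the genes that ERK signalling is known to induce were high. Of the 16, 10 were more than 2-fold over the other tumours, where 9.78% of all genes were, 9 were highest there, where 13.6% of all genes were, and 0 were below 0.5-fold. Leaving out D2 could not lower this count of 9, which stayed the same, so nothing is read from it. Dusp6, a phosphatase that inactivates ERK and is induced by it, was at 1088 CPM against 74.9 to 699.6 CPM in the other 8 tumours. Etv5 and Etv4, ETS transcription factor genes induced by the pathway, were at 443.6 and 107.7 CPM against 35.1 to 340.2 and 4.75 to 81.9 CPM. Spry2 and Spry4, feedback inhibitors, were at 52.6 and 19.8 CPM against 1.67 to 91.7 and 5.81 to 37.2 CPM, and so lay within the other tumours. Among the genes chosen after their values were seen, Dusp4, another phosphatase of the family, was at 300.3 CPM against 6.55 to 52.7 CPM, a 13.2-fold ratio, and Phlda1 was at 96.0 CPM against 5.94 to 36.2 CPM.

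In D6, 3 of the 16 were more than 2-fold over the other tumours, against 13.6% of all genes, and 7 were below 0.5-fold, against 10.7% of all genes below 0.5-fold. Dusp6 was at 204.1 CPM there, Etv4 at 7.60 CPM and Etv5 at 50.1 CPM. The 3 genes more than 2-fold over, named after their values were seen, were Ier3, Fosl1 and Dusp5. They were at 200.8, 8.95 and 22.9 CPM in D6, each the highest of the 9 tumours. Among the genes of HGF activation, Plau, the urokinase that can cut HGF, was at 193.7 CPM in D6 against 21.4 to 510.1 CPM, and Spint2, an inhibitor of the HGF-cutting proteases, was at 186.5 CPM against 8.53 to 133.9 CPM. Spint1, a related inhibitor, was at 182.2 CPM in D3, 88.1 CPM in D6 and 4.70 CPM in the lowest tumour. Mst1r, the gene of the RON receptor that is the closest relative of MET, was at 11.1 CPM in D6 against 0.70 to 4.19 CPM.

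**Figure D5:**
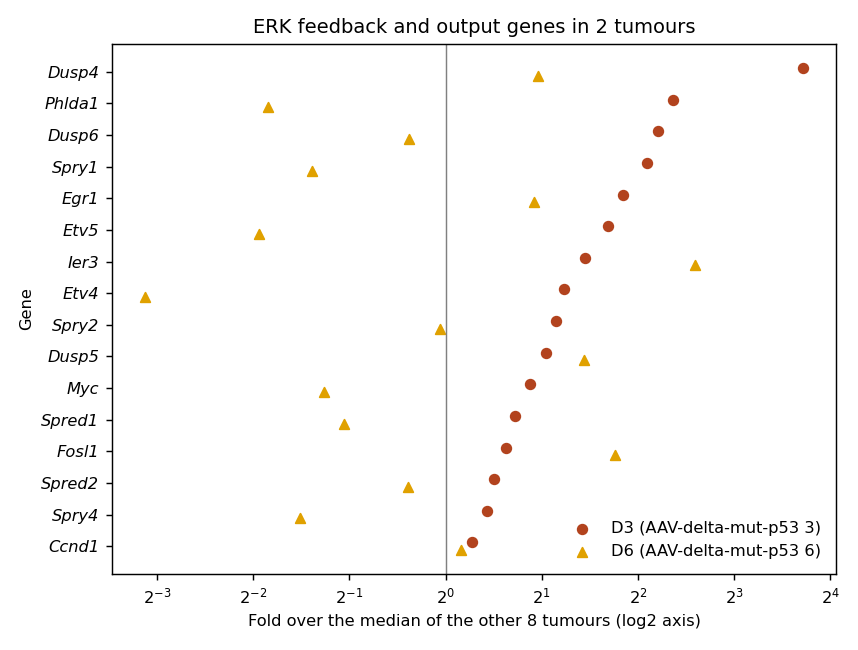
Fold over the median of the other 8 tumours (log2 x axis) for 16 feedback and output genes of the ERK pathway (y axis) in D3 (circles) and D6 (triangles). All 16 circles lie right of 1, with Dusp4 at 13.2-fold, while triangles lie on both sides.

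Of 10 genes of the invasion and growth response with a ratio, 3 were more than 2-fold over the other tumours in D3, where 9.78% of all genes were, and 2 were below 0.5-fold, where 12.3% of all genes were. In D6, 6 of the 10 were more than 2-fold over, where 13.6% of all genes were, and 1 was below 0.5-fold, where 10.7% of all genes were. Mmp9, a secreted protease gene, was at 103.8 CPM in D6 and 22.6 CPM in D3, with a median of 7.19 CPM over the other 8 tumours in each case. Spp1, which encodes osteopontin, was at 564.8 CPM in D3 and 308.4 CPM in D6, and at a low of 4.03 CPM. Snai2, a transcription factor gene of epithelial-mesenchymal transition, and Vegfa, an angiogenic growth factor gene, were chosen after their values were seen and were lowest of the 9 tumours in D3. Snai2 was at 0.83 CPM there against 12.4 to 59.0 CPM, and Vegfa at 54.6 CPM against 78.1 to 336.8 CPM. From the list of related receptors and MET partners, Cd44, a MET co-receptor gene in some of its splice forms, was at 517.1 CPM in D3 and 473.6 CPM in D6, with a median of 154.7 CPM over the other 8. Among the partners of the neighbours, 0 of 7 caveola genes with a ratio were more than 2-fold over the other tumours in D3 and 3 were below 0.5-fold, against 12.3% of all genes. Cavin1, which encodes a coat protein that caveolae need, was at 22.7 CPM there, against 13.5 to 122.3 CPM, although Cav2 was far above every other tumour. Capza1 and Capzb, the paralogue and the partner subunit of Capza2, were at 71.0 and 143.6 CPM in D3, within the 42.2 to 94.6 and 136.9 to 240.6 CPM of the other tumours.

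D3 also differed in its cell type markers. Its basal epithelial markers summed to 113.4 CPM, against 599.7 to 3530 CPM in the other 5 AAV-delta-mut-p53 tumours and 1444 to 4121 CPM in AAV-Control tumours. None of the 8 markers was at 0 in any tumour, with 4 of 8 higher on average with AAV-delta-mut-p53. Acta2 alone gave 64.1 CPM of the sum in D3. Krt5, Krt17, Trp63, Acta2, Myh11 and Cnn1 were each lowest of the 9 tumours in D3, but Krt14 and Oxtr were not. Krt14 was higher in D3 than in C1, C2 and D2, and Oxtr was higher than in C1, C3, D2 and D5. The neutrophil markers of D3 summed to 197.9 CPM, against 32.4 to 72.3 CPM in the other 5 AAV-delta-mut-p53 tumours and 5.3 to 58.9 CPM in AAV-Control tumours. Of these, Ly6g and Camp were at 0 in at least 1 tumour, and 8 of 8 were higher on average with AAV-delta-mut-p53. Over the 9 tumours r between Met and the basal marker mean was -0.74 (permutation p = 0.0391), with an adjusted p of 0.478 over 24 relations, and it was -0.34 without the 2 tumours farthest from the median of the marker mean. The part of these cell types in the Met level was not tested.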

How the data were processed

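Total RNA of 9 tumours was sequenced from strand-specific libraries, per the labels' protocols. The values are whole-number read counts, 1 row per gene, used as the authors deposited them. The submitters' processing notes name STAR 2.6.0b, DESeq2 and GRCm38 without saying what each was used for. Which program counted the reads, on which strand and with which annotation is not stated there or in the labels. Sample titles tied every column to its sample.

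Symbols and positions for 49326 of 49585 identifiers came from GENCODE mouse release M21 (GRCm38), possibly another release than the one counted with. The filter filterByExpr of edgeR 4.0.16 (R 4.3.3, minimum count of 10) left 19606 genes. On these the quasi-likelihood test, 2-sided and without covariates, compared the groups at an FDR of 0.05 by the Benjamini-Hochberg method. The test was tested on simulated data. A positive log2 fold change means a higher level with AAV-delta-mut-p53. The ratio of a tumour to the median of the other 8 used CPM plus 0.5 and the 16435 genes that averaged 1 CPM or more. Levels per kb divide CPM by the summed length of a gene's GENCODE exons. Correlations used log2(CPM + 1) and permutation tests over all pairings. Alternatives were other library scalings, DESeq2 1.42.0, limma 3.58.1 voom with sample quality weights, other filters, the counts of D4 and D5 summed, and each tumour left out in turn. No pair of libraries was alike within sampling noise. The members, gene lists and marker lists were chosen with earlier results of these data known. Named genes were the 7 members, genes within 1 Mb of Met, a preset part of each list and the 5 genes most like Met, and others are said to be chosen after their values were seen. Not every gene that this rule names is printed. One result on a pathway gene is not reported here.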

Additional observations from a re-analysis of the deposited data

Results flagged for a closer look

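Of 23 genes whose AAV-delta-mut-p53 levels were checked, 13 had 1 tumour far from the other 5 by Dixon's criterion at the 95% level, which chance alone meets in about 1 in 20 independent sets. That rate does not apply here, since Met, its neighbours and Hgf were selected for standing high in 1 tumour and many of the genes lie side by side. The values are a description and support nothing.

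D3 stood apart for Met at 9715 CPM, Cav2 at 3078 CPM, Tes at 1944 CPM, Capza2 at 373.0 CPM, St7 at 37.8 CPM and Gm4876 at 56.0 CPM. D6 stood apart for Hgf at 185.0 CPM and for the scarce transcript D830026I12Rik at 1.87 CPM.

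D2 stood apart for Tfec at 10.8 CPM and Wnt2 at 27.4 CPM. D5 stood apart for Cttnbp2 at 187.0 CPM and for Gm15594 and Gm43843, which overlap it, at 5.08 and 11.5 CPM.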

How the results depend on the processing

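No paired analysis was possible because the replicate numbers were given in accession order and pair no samples. The 7 genes were not called under any of 8 other settings or with any tumour left out. DESeq2 gave no adjusted p for Met, Hgf, Cav2 and Tes, so these 4 could not be called under that setting. The number of genes called was 0 under these settings except DESeq2, which called 104, and was 0 to 0 with each tumour left out. Met kept its direction throughout, with a log2 fold change of 2.24 to 4.87 over the other settings and 1.51 to 5.01 with each tumour left out, and so did Hgf, with 0.62 to 3.18 and 0.56 to 3.19. With each tumour left out Cav2 ran from -0.41 to 2.90, Tes from -0.30 to 1.78, Capza2 from 0.14 to 0.47, St7 from -0.13 to 0.33 and Cav1 from -0.46 to 0.28. Cav1, which lay near 0, turned positive with DESeq2 (0.0079), with a filter of 1 CPM in 3 tumours (0.0028) and with D4 and D5 summed (0.0963). Of 33 list genes named by the rule, 22 kept their sign in every setting and 11 did not.

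Taken over the mean of the other tumours, the median log2 ratio within 5 Mb of Met became -1.09, -0.78, -1.16, -0.22 and -1.01 in D1, D2, D4, D5 and D6, and -0.64, -0.14 and -1.21 in C1 to C3. For each of these tumours the mean included D3, whose high values raise a mean more than a median. The count of 34 genes up to Met was 34 with other scalings. Correlations near 0 changed sign. Spearman's rho was 0.0333 for Hgf with endothelial, -0.15 for Met with adipocyte, -0.117 for Cav1 with luminal and -0.183 for Cav1 with neutrophil markers. Library size alone gave -0.0102 for Cav1 with neutrophil markers, and with D4 and D5 summed Hgf gave -0.0287 with skeletal muscle and -0.063 with luminal markers. The cause of the sign changes of the correlations was not tested.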
